A study of Arabidopsis thaliana with 24 samples.

Results

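The heat shock genes described here are 6 genes of Arabidopsis thaliana: the small heat shock protein genes AT1G53540, AT2G29500, ATHSP22.0 (AT4G10250) and AT5G37670, the heat-stress-associated gene HSA32 (AT4G21320), and AT5G48570 (ROF2), which encodes an FK506-binding protein induced by heat. They were taken by name, with earlier results of these data known, so their counts beside shares of all probe sets are descriptions only. Each was read by 1 probe set annotated to exactly 1 gene, so that 6 of the 22746 probe sets on the array were followed. Root RNA and rosette leaf RNA from wild-type Col-0 plants aged 29 days was hybridised to 24 Affymetrix arrays, which formed 8 groups of 3. In each tissue the groups were plants given nano-titania (TiO2) at 500 mg/L in KCl, plants given KCl alone, plants given nano-ceria (CeO2) at 500 mg/L in millipore water, and plants given millipore water alone, watered from above on days 0, 4 and 17. The KCl concentration is given as 0.1 mM in the sample descriptions and as 0.1 M in the treatment protocol, and the titania plants received the same salt as their controls. Replicates are biological according to the labels, which leave unsaid whether an array held 1 plant or several.

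Small heat shock proteins bind unfolding proteins and keep them from clumping until chaperones that use ATP, such as HSP70 and HSP101, refold them. In vegetative tissue of Arabidopsis many of their genes, but not all, are almost silent at growth temperature. Such genes are switched on by heat shock factors when proteins unfold, in heat but also in several other stresses. AT1G53540 and AT2G29500 encode class I proteins of the cytosol, ATHSP22.0 encodes a protein of the endoplasmic reticulum and AT5G37670 a protein of peroxisomes. ROF2 is a peptidyl-prolyl isomerase that binds the chaperone HSP90 and takes part in a complex with a heat shock factor, and HSA32 is needed for acquired heat tolerance to last.

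On the TAIR10.1 assembly AT1G53540 lies on chromosome 1 (19980299 to 19981199) and AT2G29500 on chromosome 2 (12633065 to 12634120). Chromosome 4 carries ATHSP22.0 (6370338 to 6371372) and HSA32 (11340362 to 11342075), and chromosome 5 carries AT5G37670 (14968758 to 14969591) and AT5G48570 (19690461 to 19693845). The probe sets have no suffix marking probes shared between transcripts, but class I small heat shock proteins are alike in sequence and cross-hybridisation was not tested.

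Signals are log2 values made by the authors with RMA. Array medians lay between 4.96 and 5.15, and 6 arrays had a narrow range of signal, with a lower quartile over 3.7: replicates 1 and 3 of the KCl roots, 2 of the TiO2 roots, 1 of the water roots, 2 of the KCl leaves and 2 of the CeO2 leaves. The tissue labels held: the mean of 4 leaf markers (PSAN, PRK, RCA and SBPASE) lay between 4.30 and 6.91 on root arrays and between 10.67 and 12.73 on leaf arrays, and that of 4 root markers (PYK10, JAL22, JAL33 and JAL34) between 9.03 and 11.39 on root arrays and at 6.21 or below on leaf arrays. Differences are on the log2 scale, and a value after ± is the standard error (SE) of a difference or, for a group's level, the SD over 3 arrays. The adjusted p-values of limma cover all 22746 probe sets of a comparison, and a gene passed at a value under 0.05.

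TiO2 roots were set against KCl roots, which were given the same salt without the particle. AT5G48570 and AT1G53540 rose in TiO2 roots, by 4.03 and 4.22 on the log2 scale, and both were at a low signal in each of the other 3 root groups, where it was not tested whether they exceed background. The remaining 4 genes had higher means with TiO2 without passing the test. The plot of every array shows that the TiO2 roots stood highest of the root groups in all 6 genes and that the size of the difference varied widely between them.

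**Figure D1:**
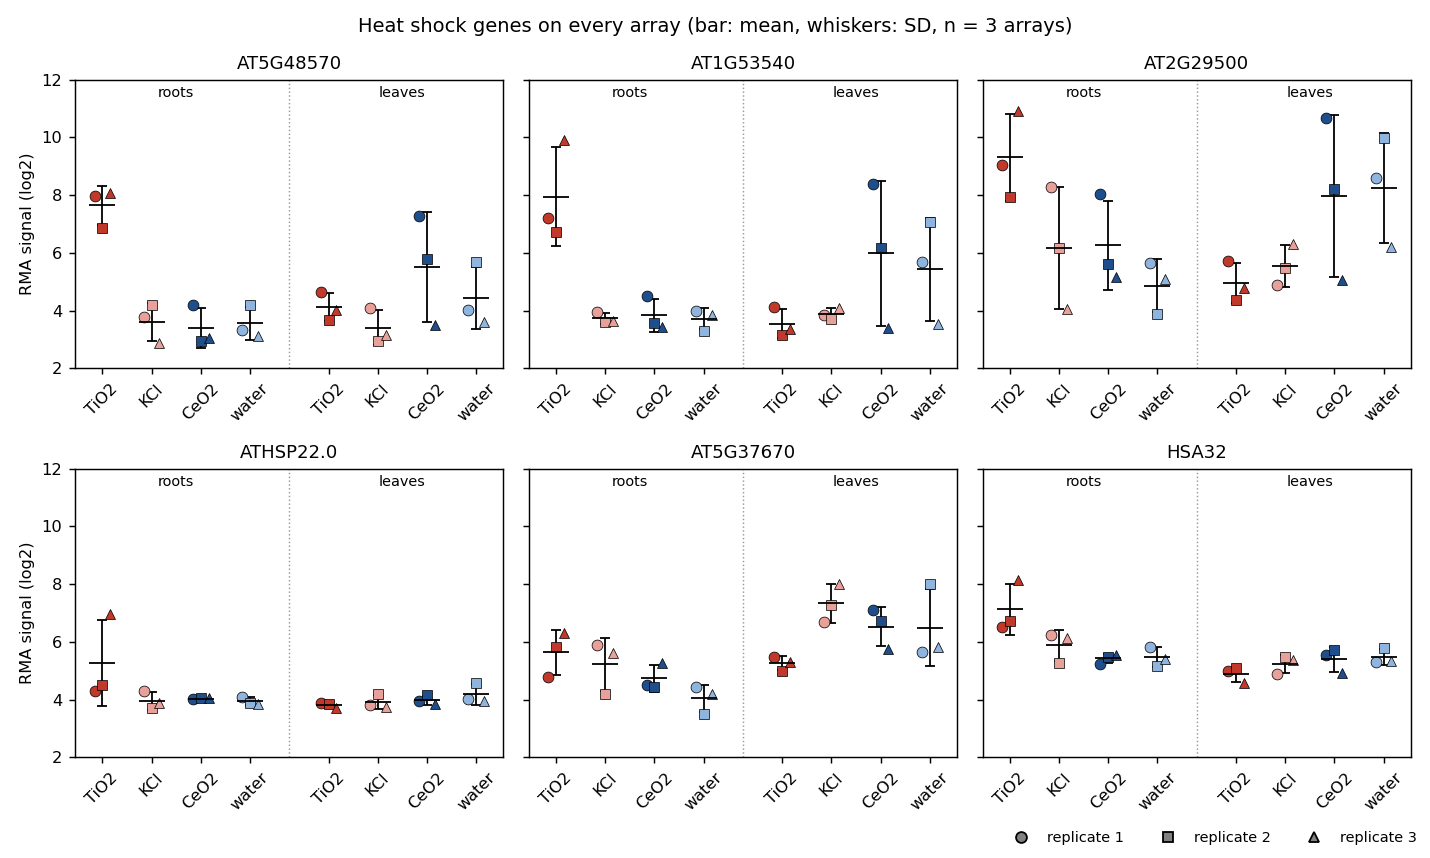
RMA signal (log2) of the 6 heat shock genes on all 24 arrays, with roots left and leaves right of the dotted line. Points are arrays, shaped by replicate number, horizontal bars are group means and whiskers the SD of 3 arrays. For AT5G48570 the TiO2 roots sit between 6.88 and 8.09 and the other root arrays at 4.21 or below, while in leaves CeO2 and water arrays are spread widely.

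AT5G48570, the isomerase, read 7.99, 6.88 and 8.09 in TiO2 roots, against 3.78, 4.19 and 2.89 in KCl roots. CeO2 roots were at 4.18, 2.94 and 3.07 and water roots at 3.33, 4.21 and 3.13. The lowest TiO2 array thus stood well above the highest of the other 9 root arrays, which did not separate from each other by treatment. The mean was 7.65 ± 0.67 in TiO2 roots and 3.62 ± 0.66 in KCl roots (SD, n = 3 each), a rise of 4.03 ± 0.49 (limma adjusted p = 0.0131).

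AT1G53540, the first class I gene, read 7.23, 6.73 and 9.90 in TiO2 roots, against 3.94, 3.60 and 3.66 in KCl roots. It lay between 3.44 and 4.50 in CeO2 roots and between 3.30 and 3.99 in water roots. Again no TiO2 array overlapped any other root array, but the TiO2 arrays differed among themselves, with replicate 3 the highest. The rise was 4.22 ± 0.68 (limma adjusted p = 0.036), and the SD within TiO2 roots, 1.71, was exceeded by 0.822% of all probe sets.

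AT2G29500, the second class I gene, read 9.06, 7.96 and 10.91 in TiO2 roots, against 8.30, 6.16 and 4.05 in KCl roots. KCl replicate 1 lay above TiO2 replicate 2, and CeO2 replicate 1 (8.03) did so too, so the groups overlapped. The difference of 3.14 ± 1.15 between TiO2 and KCl roots did not pass (limma adjusted p = 0.276).

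ATHSP22.0, of the endoplasmic reticulum, read 4.28, 4.51 and 6.97 in TiO2 roots, against 4.28, 3.69 and 3.87 in KCl roots. Its high mean in TiO2 roots came from replicate 3: the difference was 1.31 ± 0.57 with all arrays (limma adjusted p = 0.377) and 0.45 without that array. HSA32 read 6.50, 6.73 and 8.13 in TiO2 roots, against 6.23, 5.27 and 6.12 in KCl roots. Its groups did not overlap, with a difference of 1.25 ± 0.42 that did not pass (limma adjusted p = 0.227).

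AT5G37670, the peroxisomal member, had the smallest difference of the 6. It read 4.79, 5.82 and 6.31 in TiO2 roots, against 5.88, 4.18 and 5.60 in KCl roots, and these groups overlapped. The difference was 0.42 ± 0.51 (limma adjusted p = 0.818), and without KCl replicate 2 it was -0.10.

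In all, 2 of the 6 genes rose and 0 fell, where 0.202% of all probe sets rose. The 6 genes were chosen with earlier results of these data known, so this count and those below are descriptions, not tests. In 3 of 6 (AT5G48570, AT1G53540 and HSA32) every TiO2 root array lay above every KCl root array, as it did in 6.73% of all probe sets. The median difference over the 6 genes was 2.22, against -0.06 over all probe sets. Replicate 3 of the TiO2 roots held the highest root value of all 6 genes. AT5G48570 did not pass without KCl replicate 3, TiO2 replicate 1 or TiO2 replicate 3 (adjusted p = 0.0555, 0.0705 and 0.0709), AT1G53540 did not pass without KCl replicates 1, 2 or 3 or TiO2 replicate 1 (adjusted p = 0.0663, 0.0875, 0.137 and 0.0841), and neither passed in a fit to the TiO2 and KCl roots alone (adjusted p = 0.0638 and 0.144) or without the 6 narrow arrays (adjusted p = 0.179 and 0.238). Their differences ranged from 3.25 to 4.83 over the fits that leave out 1 array.

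**Figure D2:**
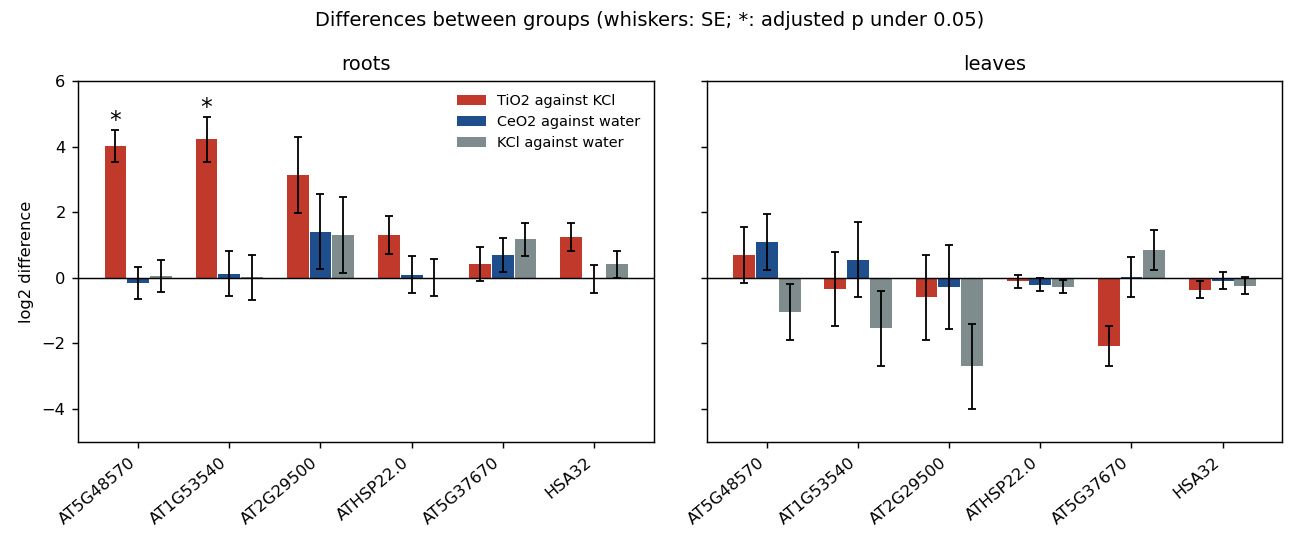
Log2 differences of the 6 heat shock genes in roots (left) and leaves (right) for TiO2 against KCl (red), CeO2 against water (blue) and KCl against water (grey). Whiskers are the SE and an asterisk marks an adjusted p under 0.05. The 2 asterisks stand over AT5G48570 (4.03) and AT1G53540 (4.22) with TiO2 in roots. The KCl arrays enter the red and the grey bars.

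Tissue markers also differed in mean. All 4 leaf markers had higher and all 4 root markers lower means in TiO2 than in KCl roots, with medians of 0.57 and -0.87, and none passed. In CeO2 against water roots all 4 leaf and all 4 root markers had higher means, with medians of 1.13 and 0.74, and none passed. The mean of the leaf markers lay between 5.62 and 6.15 in TiO2 roots and between 4.30 and 5.93 in KCl roots. That of the root markers lay between 9.03 and 10.18 in TiO2 roots and between 9.41 and 11.30 in KCl roots. Their part in the rise of AT5G48570 and AT1G53540 was not tested. In whole organs, a change in the number of cells of a type and a change in RNA per cell cannot be told apart.

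Titania roots were also set against water roots, which lack both salt and particle. In this comparison every TiO2 array lay above every water array in 6 of 6 genes, as it did in 2.51% of all probe sets. By limma 0 of 6 passed, where 1 probe set did (0.0044% of all), and 6 of 6 had an unadjusted p under 0.05, as 1.29% of all probe sets did in this direction. The differences were 4.44 ± 1.15 for AT2G29500, 4.24 ± 0.68 for AT1G53540 and 4.09 ± 0.49 for AT5G48570, which had the smallest adjusted p of the 6 (limma, 0.076). HSA32 was at 1.66 ± 0.42, AT5G37670 at 1.60 ± 0.51 and ATHSP22.0 at 1.32 ± 0.57, which was 0.46 without TiO2 replicate 3. The TiO2 arrays enter both this comparison and that of TiO2 against KCl roots.

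Salt alone gave smaller differences in roots than TiO2 over KCl did, except in AT5G37670, where TiO2 over KCl was at 0.42. Between KCl and water roots 0 of 6 genes passed (limma), where 0.119% of all probe sets did. One of them, AT5G37670, had an unadjusted p under 0.05, as 6.18% of all probe sets did in this direction, with 5.22 ± 0.91 in KCl roots and 4.04 ± 0.47 in water roots and a difference of 1.17 ± 0.51 (limma adjusted p = 0.41). For AT2G29500 the difference was 1.30 ± 1.15, with water roots at 5.65, 3.87 and 5.08, and it ranged from 0.24 without KCl replicate 1 to 2.36 without KCl replicate 3. The means of the other 4 genes differed by less than the larger SD of the groups.

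Ceria gave no called change of these genes in roots. Between CeO2 and water roots 0 of 6 passed and 0 had an unadjusted p under 0.05 (limma), where 0.0176% of all probe sets passed and 6.7% had such a p. AT5G37670 read 4.51, 4.43 and 5.26 in CeO2 roots, against 4.42, 3.51 and 4.19 in water roots. Those arrays did not overlap, as in 5.7% of all probe sets in this direction, by a narrow margin and with a difference of 0.69 ± 0.51. AT2G29500 differed by 1.40 ± 1.15, AT1G53540 by 0.13 ± 0.68 and AT5G48570 by -0.16 ± 0.49.

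The effect of TiO2 over KCl was tested against that of CeO2 over water. Titania was given only in KCl and ceria only in water, so particle and salt cannot be told apart in this comparison. In roots 1 of 6 genes differed, AT5G48570, whose TiO2 effect was higher by 4.19 ± 0.69 (limma adjusted p = 0.0318), where 0.321% of all probe sets differed in this direction. AT1G53540 was at 4.09 ± 0.96 without passing (limma adjusted p = 0.104). AT2G29500 was at 1.73 ± 1.62, ranging from 0.68 without KCl replicate 3 to 2.80 without KCl replicate 1. HSA32 was at 1.28 ± 0.59 and ATHSP22.0 at 1.21 ± 0.80, and without TiO2 replicate 3 they were at 0.78 and 0.35. AT5G37670 was at -0.27 ± 0.72. AT5G48570 kept its call in 3 of 12 fits that leave out 1 array and lost it on leaving out KCl replicates 1 or 3, TiO2 replicates 1 or 3, any water array, or CeO2 replicates 2 or 3 (adjusted p up to 0.0854).

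The heat response uses many more genes than these 6. Lists of small heat shock proteins, HSP70 and BiP, HSP90 and HSP100, heat shock factors, regulators and co-chaperones, and FK506-binding proteins held 96 genes, of which 24 had a named probe set, the 6 and 18 others. None of the 21 heat shock factors had one, so their transcripts were not analysed here. In TiO2 against KCl roots 14 of the 18 were higher, with a median of 0.62, and 0 passed. By limma 5 were higher and 2 lower at an unadjusted p under 0.05, as 5.69% and 6.79% of all probe sets were.

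The listed regulators and co-chaperones other than HSA32 ranged from -0.02 to 3.31. Hop3, which links HSP70 to HSP90, read 5.95, 4.66 and 5.62 in TiO2 roots, against 3.85, 3.44 and 2.86 in KCl roots. These groups did not overlap, and the difference of 2.03 ± 0.36 lay just outside the threshold (limma adjusted p = 0.0506). Fes1A, which protects cytosolic HSP70, differed by 3.31 ± 0.80 (limma adjusted p = 0.113), and AT5G51440, a small heat shock protein of mitochondria, by 2.79 ± 0.63 (limma adjusted p = 0.0941). AT1G54050, a class III small heat shock protein, and the DnaJ-type gene AT2G20560, both named after their values were seen, were at 3.05 and 3.04. The remaining small heat shock protein genes with lower p ranks, AT1G52560, AT2G19310, AT4G21870 and AT5G47600, also named after their values were seen, were at 2.05, 1.06, 0.38 and -0.10. The co-chaperones Hop2, Hop1 and AT4G02450, named after their values were seen, were at 0.40, 0.36 and -0.02. Of the chaperones that use ATP, the cytosolic HSP70 gene AT3G09440 was at 1.86, Hsp70-2 at 0.53 and CLPB2 at 0.16.

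Lower means also occurred within these families. The small heat shock protein gene AT5G54660 differed by -1.24 ± 0.30 (limma adjusted p = 0.117). Among the FK506-binding proteins, AT3G12340 read 3.51, 3.38 and 3.25 in TiO2 roots, against 5.20, 4.92 and 4.40 in KCl roots, which is opposite in direction to AT5G48570 (difference -1.46 ± 0.26, limma adjusted p = 0.0506). Its CeO2 roots (3.15 to 3.68) and water roots (3.19 to 3.80) lay with the TiO2 roots. Here the KCl roots were the group that stood apart, whereas for AT5G48570 it was the TiO2 roots.

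**Figure D3:**
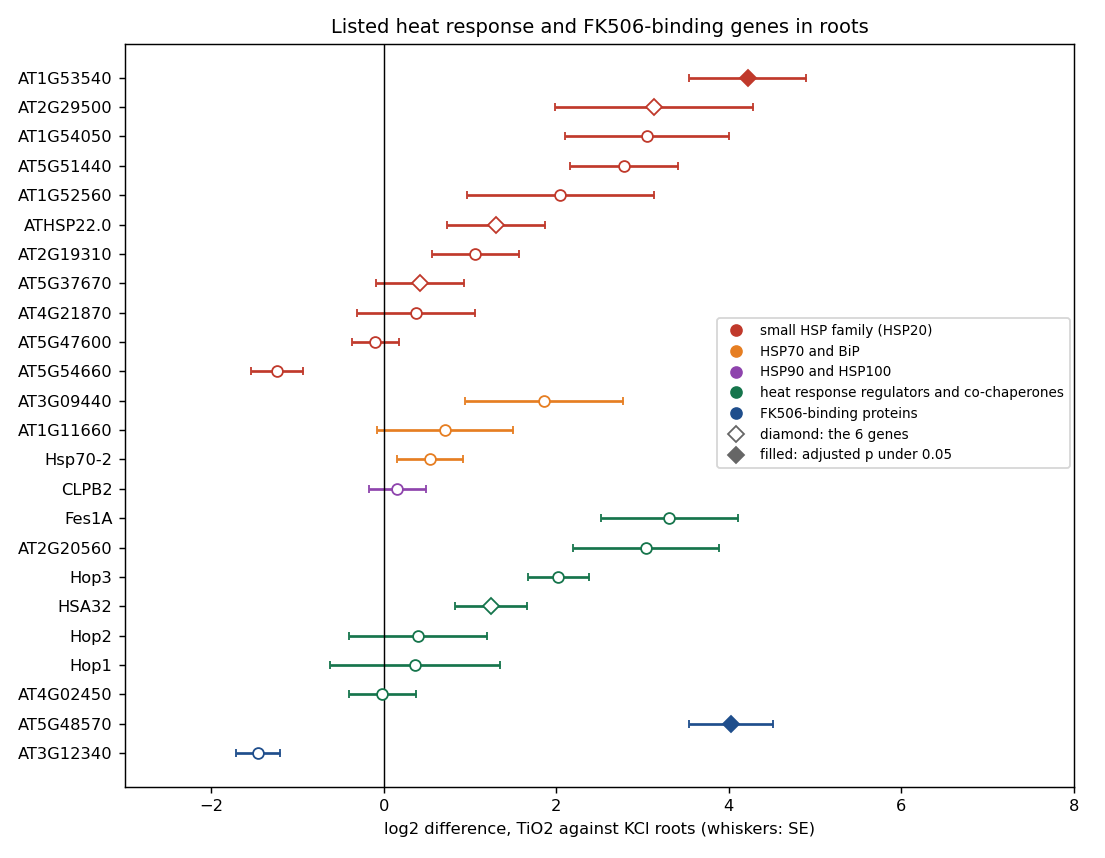
Log2 difference between TiO2 and KCl roots of the 24 listed heat response and FK506-binding genes with a named probe set, ordered by list and size. Diamonds are the 6 heat shock genes, circles the other 18, filled symbols have an adjusted p under 0.05 and whiskers are the SE. Of the 18 circles 14 lie right of 0, and the 2 filled diamonds are AT1G53540 (4.22) and AT5G48570 (4.03).

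No gene of the 6 was called in leaves. In TiO2 against KCl leaves 0 of 6 genes passed (limma), where 0.022% of all probe sets did, and 1 had an unadjusted p under 0.05, as 15.5% of all probe sets did in either direction. That gene was AT5G37670, which read 5.47, 4.99 and 5.31 in TiO2 leaves, against 6.69, 7.29 and 8.01 in KCl leaves. The groups did not overlap, as in 14% of all probe sets in this direction, and the difference was -2.07 ± 0.61 (limma adjusted p = 0.19). KCl leaves held the highest of the 8 group means of this gene, 7.33 ± 0.66. All 4 leaf markers had higher means in TiO2 than in KCl leaves, with a median of 0.97, and their part in this difference was not tested. AT5G48570 differed by 0.71 ± 0.85 and AT2G29500 by -0.60 ± 1.29.

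Whether the TiO2 effect itself differed between roots and leaves was tested in 1 fit to all arrays. All 6 genes had a more positive effect in roots, from 1.40 for ATHSP22.0 to 4.56 for AT1G53540, but 0 of 6 passed (limma adjusted p from 0.186 to 0.461), where 0.207% of all probe sets did. At an unadjusted p under 0.05 there were 5 of 6, as there were 4.58% of all probe sets in this direction. AT5G48570 was at 3.32 ± 1.03, AT2G29500 at 3.73 ± 1.82, AT5G37670 at 2.50 ± 0.83 and HSA32 at 1.61 ± 0.50. For AT5G37670 most of this was the lower value in leaves, with TiO2 over KCl at -2.07 in leaves and 0.42 in roots. Over all probe sets the median was -0.0044.

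Within CeO2 and water leaves, several of the genes differed widely between arrays of the same group. AT1G53540 read 8.38, 6.18 and 3.39 in CeO2 leaves, against 5.69, 7.08 and 3.53 in water leaves. AT2G29500 read 10.66, 8.20 and 5.07 in CeO2 leaves, against 8.58, 9.98 and 6.20 in water leaves. AT5G48570 read 7.29, 5.78 and 3.51 in CeO2 leaves, against 4.03, 5.68 and 3.62 in water leaves. In these 3 genes replicate 3 of both groups was low, and CeO2 replicates 1 and 2 and water replicate 2 were high. In TiO2 and KCl leaves AT1G53540 stayed between 3.17 and 4.14 on all 6 arrays.

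The SD of AT2G29500 within CeO2 leaves, 2.80, was exceeded by 0.0879% of all probe sets, and that of AT1G53540, 2.50, by 0.127%. Within water leaves the SDs were 1.91 and 1.79, exceeded by 0.365% and 0.492%. The median SD of all probe sets was 0.38 in CeO2 leaves and 0.24 in water leaves. AT5G37670 was also spread in water leaves, where it read 5.63, 8.02 and 5.83 (SD 1.32, exceeded by 1.64%, against 3.2% for the SD of 1.09 of AT5G48570). In CeO2 leaves ATHSP22.0 and HSA32 had SDs of 0.16 and 0.43.

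**Figure D4:**
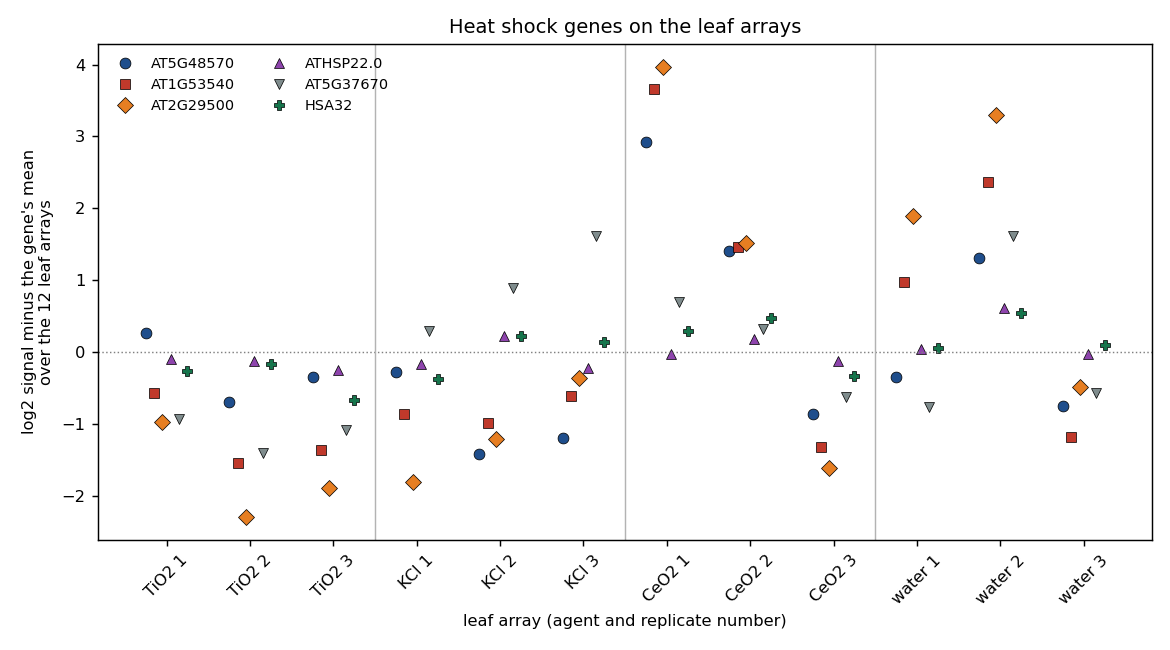
Signal of the 6 heat shock genes on the 12 leaf arrays, as log2 signal minus the gene's mean over those arrays, by agent and replicate number. Each symbol is 1 gene. AT5G48570, AT1G53540 and AT2G29500 lie together above 0 on CeO2 replicates 1 and 2 and water replicate 2, and together below 0 on replicate 3 of both groups.

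With this spread no group difference was called between CeO2 and water leaves, where 0 of 6 genes passed, 0 had an unadjusted p under 0.05 (limma). Over the whole array 0 probe sets (0%) passed and 2.21% had such a p. The differences were 1.09 ± 0.85 for AT5G48570 and 0.55 ± 1.14 for AT1G53540. Without CeO2 replicate 1 AT1G53540 was at -0.65, and without water replicate 3 at -0.40. AT5G48570 ranged from 0.20 without CeO2 replicate 1 to 2.10 without CeO2 replicate 3. Between KCl and water leaves 0 of 6 passed and 0 had an unadjusted p under 0.05 (limma), where 0.189% of all probe sets passed and 12.2% had such a p. AT2G29500 averaged 5.56 ± 0.73 in KCl leaves and 8.26 ± 1.91 in water leaves, with a difference of -2.70 ± 1.29 (limma adjusted p = 0.442). AT1G53540 was at -1.54, AT5G48570 at -1.03 and AT5G37670, in the opposite direction, at 0.84.

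Titania leaves were below water leaves in the mean of all 6 genes. In 4 of 6 the arrays did not overlap, as in 10.9% of all probe sets in this direction, 2 had an unadjusted p under 0.05, as 3.59% of all probe sets did, and 0 passed (limma), as did 0% of all probe sets. AT2G29500 read 5.71, 4.39 and 4.79 in TiO2 leaves, all below the lowest water leaf array (difference -3.29 ± 1.29, limma adjusted p = 0.608). HSA32 was at -0.60, AT5G37670 at -1.24, ATHSP22.0 at -0.37, AT1G53540 at -1.88 and AT5G48570 at -0.32. Of the 18 other listed genes, 17 were lower, with a median of -0.21 against -0.02 over all probe sets.

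Roots and leaves of control plants were compared over KCl and water plants together. Of the 6 genes only AT5G37670 differed, which was lower in roots than in leaves by 2.28 ± 0.41 (limma adjusted p = 0.000261). Of all probe sets 34.6% differed and 15.4% were lower in roots. It averaged 5.22 ± 0.91 in KCl roots and 4.04 ± 0.47 in water roots, against 7.33 ± 0.66 in KCl leaves and 6.49 ± 1.32 in water leaves. The other differences ran from -1.39 ± 0.91 for AT2G29500 to 0.31 ± 0.25 for HSA32, with AT1G53540 at -0.94, AT5G48570 at -0.34 and ATHSP22.0 at -0.10. These are means over both controls, which could differ in direction. AT2G29500 averaged 6.17 in KCl roots and 5.56 in KCl leaves, but 4.87 in water roots and 8.26 in water leaves. For AT5G48570 these means were 3.62 and 3.41 with KCl, and 3.56 and 4.44 with water. AT1G53540 was lower in roots in both controls. Of the 7 other small heat shock protein genes 3 passed as lower in roots: AT2G19310 at -2.56, AT4G21870 at -3.01 and AT5G54660 at -1.07. As higher in roots 0 passed. Of the other listed genes 1 passed, the FK506-binding gene AT3G12340, which was higher in roots by 0.63 ± 0.15 (limma adjusted p = 0.0029). This difference lay in the KCl plants, at 4.84 ± 0.41 in roots and 3.54 ± 0.04 in leaves. Water plants were at 3.42 ± 0.34 in roots and 3.47 ± 0.26 in leaves.

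Over the 8 groups, TiO2 roots held the highest mean of 5 genes and KCl leaves that of AT5G37670. In 4 of those 5 the next group in order was a leaf group given CeO2 or water, whose arrays overlapped with the TiO2 roots. For HSA32 it was the KCl roots, at 5.87 ± 0.53 against 7.12 ± 0.88 in TiO2 roots, without overlap. Below the first ranks the group means of AT1G53540 from KCl leaves (3.89) down to TiO2 leaves (3.56), and of AT5G48570 from TiO2 leaves (4.12) down to CeO2 roots (3.40), followed each other by less than the larger SD of the neighbours. On 9 of 24 arrays AT1G53540, and on 8 of 24 AT5G48570, lay below the lower quartile of the array. Detection calls were not used here, so it was not tested whether these low signals exceed background.

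The 6 genes varied together to different degrees. Over the 12 root arrays Pearson's r between pairs ran from 0.41 to 0.93, and the highest was that of AT1G53540 with AT5G48570. Pairs with AT5G37670 had a median of 0.59 and the other 10 pairs one of 0.83. Over the 12 leaf arrays the range was 0.25 to 0.97, the highest for AT1G53540 with AT2G29500. These values describe arrays that share treatments, and the root arrays include the 3 TiO2 arrays.

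The genes most like the 6 in pattern were sought by correlation with the mean of their standardised values over 12 arrays. In roots these were AT5G51440 (r = 0.93), AT3G19920 (r = 0.92), RALFL18, AT4G38410, AT4G22530, AT5G35320, AT1G71000 and AT2G47720 (r = 0.87). AT5G51440 averaged 6.47 ± 1.58 in TiO2 roots and 3.68 ± 0.49 in KCl roots, and AT3G19920 averaged 6.96 ± 0.89 in TiO2 roots and 4.93 ± 0.53 in KCl roots. In leaves they were AT5G57500 and AT5G67350 (r = 0.96 each), AT2G47550, AT2G03690, AT1G53980, AT5G57480, AT2G36300 and AT4G31960 (r = 0.94). No gene was among the 8 of both tissues, and of these genes AT5G51440 alone was on the heat lists.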

How the data were processed

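Total RNA (TRIzol) was labelled as biotin cRNA and hybridised, per the labels' protocols. The deposited values are log2 signals per probe set, made by the authors with RMA, per the submitters' processing notes, which give no RMA version, and were used as deposited. Probe sets were named through GEO's platform annotation, which gave 13513 of 22746 exactly 1 gene, and coordinates come from RefSeq's TAIR10.1 table. Groups came from the labels. With limma 3.58.1 in R 4.3.3 (lmFit and eBayes), group means were fitted per tissue (12 arrays) or, between tissues, over all 24, and p-values were adjusted by Benjamini-Hochberg over all probe sets of each of 13 comparisons. Correlations were computed with pandas 2.3.3. Every one of the 6 genes is described. Of the other listed genes, those that passed are named (at most 6 per comparison), or at most the 2 with the smallest p of a list with none, and so are the 8 genes of each tissue most correlated with the 6 genes' mean standardised value. Any further gene of the heat lists is marked as named after its values were seen. The 6 genes and the lists were chosen with earlier results of these data known. Same-numbered arrays of KCl and water roots deviated together (r = 0.374, 0.341 and 0.176). In that comparison 0 of the 6 genes passed without the number as a block, so the block had no call to remove, and it added none. The block did remove calls in comparisons with TiO2 roots, given below. On data simulated for TiO2 against KCl roots (22746 probe sets, 50 changed at each size) the fit recovered 26% of rises of 1 log2 unit, 62% of 2 and 86% of 4. The simulation gave a probe set the same spread in every group and drew changed probe sets from the whole array. These rates therefore do not describe the 6 genes, such as AT1G53540 with SDs of 1.71 in TiO2 and 0.18 in KCl roots. Alternatives were a fit to the groups compared alone or to all arrays, the replicate block, array weights, trend and robust moderation, median centring, quantile normalization, a filter (signal above 4 on at least 3 arrays), and leaving out each array or the 6 narrow ones. The number of arrays limits the precision.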

Additional observations from a re-analysis of the deposited data

Results flagged for a closer look

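Titania was given only in KCl and ceria only in water, so particle and salt cannot be told apart when their effects are compared. In roots the response of AT5G48570 (ROF2) to TiO2 over KCl was called different from that to CeO2 over water. Its TiO2 effect over KCl was 4.03 ± 0.49 and its CeO2 effect over water -0.16 ± 0.49, and the test of the difference between these effects gave 4.19 ± 0.69 (limma adjusted p = 0.0318). The call held in 3 of 12 fits that leave out 1 array and was lost with the replicate number as a block (adjusted p = 0.0608) and without the 6 narrow arrays (adjusted p = 0.227). AT1G53540 had a difference of 4.09 ± 0.96 that did not pass (limma adjusted p = 0.104) but passed with array weights (adjusted p = 0.00652).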

How the results depend on the processing

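The number of the 6 genes that passed was 2 for TiO2 against KCl roots, but 0 in a fit to the groups compared alone, 1 with the replicate number as a block, 5 with array weights, 0 without the 6 narrow arrays (where KCl roots keep 1 array, assumed to vary like the other groups) and 0 to 2 on leaving out 1 array. For TiO2 in KCl against water roots it was 0, with array weights 4 and with trend and robust moderation 1. For the TiO2 effect against the CeO2 effect in roots it was 1, with the block 0, with array weights 2, without the narrow arrays 0 and on leaving out 1 array 0 to 1. Array weights also gave 1 for TiO2 against KCl leaves, 2 for TiO2 in KCl against water leaves and 6 for the TiO2 effect in roots against leaves, each 0 without them. The causes were not tested. The block lost AT1G53540 in TiO2 against KCl roots (limma adjusted p = 0.057). Same-numbered TiO2 and KCl root arrays did not deviate together (r = -0.188, -0.45 and -0.047). The labels do not say whether a number marks a shared plant or day, and these values cannot decide it. AT5G37670 kept its call between control roots and leaves under every alternative run. Of the 51 differences printed, 8 changed sign, none of them called. For AT5G37670, TiO2 against KCl roots ranged from -0.10 to 0.85 on leaving out 1 array, and the TiO2 effect against the CeO2 effect in roots was 0.19 with array weights, 0.49 without the narrow arrays and -0.79 to 0.16 on leaving out 1 array. CeO2 against water roots was -0.14 with array weights and -0.20 to 0.33 on leaving out 1 array for AT1G53540, and -0.56 to 0.16 for AT5G48570. On leaving out 1 array, AT1G53540 ranged from -0.65 to 1.84 for CeO2 against water leaves, AT5G48570 from -0.73 to 0.29 for TiO2 in KCl against water leaves and ATHSP22.0 from -0.19 to 0.0005 between control roots and leaves, where HSA32 was at -0.0315 without the narrow arrays. On median centring the median over the whole array shifted by -0.12 for KCl against water roots, by 0.13 and -0.11 for the difference of effects in roots and leaves, and by 0.19 for the TiO2 effect in roots against leaves.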
